A study of Mus musculus with 6 samples.

Results

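The genes described here are targets of PPARA and enzymes of fatty acid oxidation, 35 in all: the receptor gene itself and genes of fatty acid uptake, mitochondrial and peroxisomal beta-oxidation, omega-oxidation, ketone metabolism and lipid droplets. They were chosen by gene symbol. All 35 were found by Ensembl ID among the 37991 genes of the count files and all 35 passed the filter on low counts, which left 12631 tested genes. RNA sequencing counts came from 6 livers of FVB mice at 84 days of age. In 3 livers both copies of Ing5 were wild type (Ing5 +/+, here WT), and 3 livers carried 1 MommeD48 allele (Ing5 MommeD48/+, here Het). Ing5 encodes a subunit of histone acetyltransferase complexes, and the comparison asks how heterozygosity for the mutation affects liver transcripts. The labels name no kind of mutation, sex, feeding state or time of dissection, and nothing in them ties each numbered liver to a mouse of its own. The p-values therefore measure the spread between these 6 samples, part of which may be technical. MommeD alleles come from a mutagenesis screen in FVB mice for modifiers of transgene silencing.

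PPARA is a nuclear receptor of hepatocytes that fatty acids and fibrate drugs activate. With its partner RXR it binds direct repeats of a short motif and raises transcription of genes that take up, activate and burn fatty acids, above all in fasting. Mitochondria shorten most fatty acids by beta-oxidation, peroxisomes take the very long chains, and enzymes of the CYP4A family start omega-oxidation at the far end of the chain. In mouse liver the Cyp4a genes are among the most responsive targets of the receptor.

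Library totals ran from 19840541 to 22041117 counts, and a gene with 0 counts could have stood at up to 3 counts, or 0.136 to 0.154 CPM (counts scaled to a common library size), counting error only. Ing5 had 182, 228 and 191 counts in the WT and 193, 217 and 180 counts in the Het libraries, so its level did not mark the genotype. Marker genes of hepatocytes (6 of 7 matched by symbol) summed to 73470.3, 72558 and 90371 CPM in the WT and 94887, 80535 and 76582 CPM in the Het livers. Alb made up most of these sums, with 58698 CPM in WT replicate 1 and 78783 CPM in Het replicate 1. As the mean over these 6 genes of log2(CPM + 1), each centred on its 6-liver mean, WT livers scored -0.021, -0.16 and 0.079. Het livers scored 0.010, 0.071 and 0.024. In bulk tissue fewer cells of a type and less RNA per cell cannot be told apart.

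No member passed the test for a difference between the genotypes. With p-values from edgeR (quasi-likelihood) adjusted by Benjamini-Hochberg over every tested gene, 0 of 35 members passed an adjusted p of 0.05, and the adjusted p was 0.9998 for each member. Over all tested genes 0 passed (0%). DESeq2 and limma-voom also called 0 members, but DESeq2 gave no p-value for Cyp4a14. With the unadjusted p under 0.05, edgeR gave 1 member, Pdk4, against 4.33% of all genes. Pdk4 was also the member whose 3 Het values lay apart from its 3 WT values, 1 of 35 against 8.99% of all genes. Of the members 17 had lower and 18 higher values in Het livers, while 49.7% of all genes were lower. With library sizes that omit the 20 most abundant genes the split was 13 lower and 22 higher, and 41.4% of all genes were lower. The median log2 fold change of Het over WT was 0.021 for the members and 0.00088 for all genes. The 95% interval stayed inside a 2-fold change in either direction for 27 members, and inside a 1.5-fold change for 22. Over all 12631 tested genes these counts were 11373 and 8979.

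Members differed between livers of the same genotype, more so among Het than among WT livers. The ratio of highest to lowest liver (with 1 CPM added) had a median over members of 1.19 in WT and 1.35 in Het livers. Over all tested genes these medians were 1.19 and 1.16. Het replicate 1 stood apart for many members. This liver had the highest value of all 6 for 21 of the 35 members, where it had the highest value for 14.8% of all tested genes. It had the lowest value for 0 members, against 13.7% of all genes. The ratio of Het replicate 1 to the median of the other 5 livers (with 1 CPM added to both) had a median of 1.24 over the members and 0.998 over all genes. A score of the members was taken by centring log2(CPM + 1) of each gene on its mean in the 6 livers and averaging over genes. It came to -0.17, 0.079 and -0.031 for WT livers and 0.45, -0.13 and -0.20 for Het livers. Only Het replicate 1 stood far above 0 on this score, and the other 2 Het livers lay at the low end with WT replicate 1. The count of highest values was chosen after the data had been seen and carries no test.

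**Figure D1:**
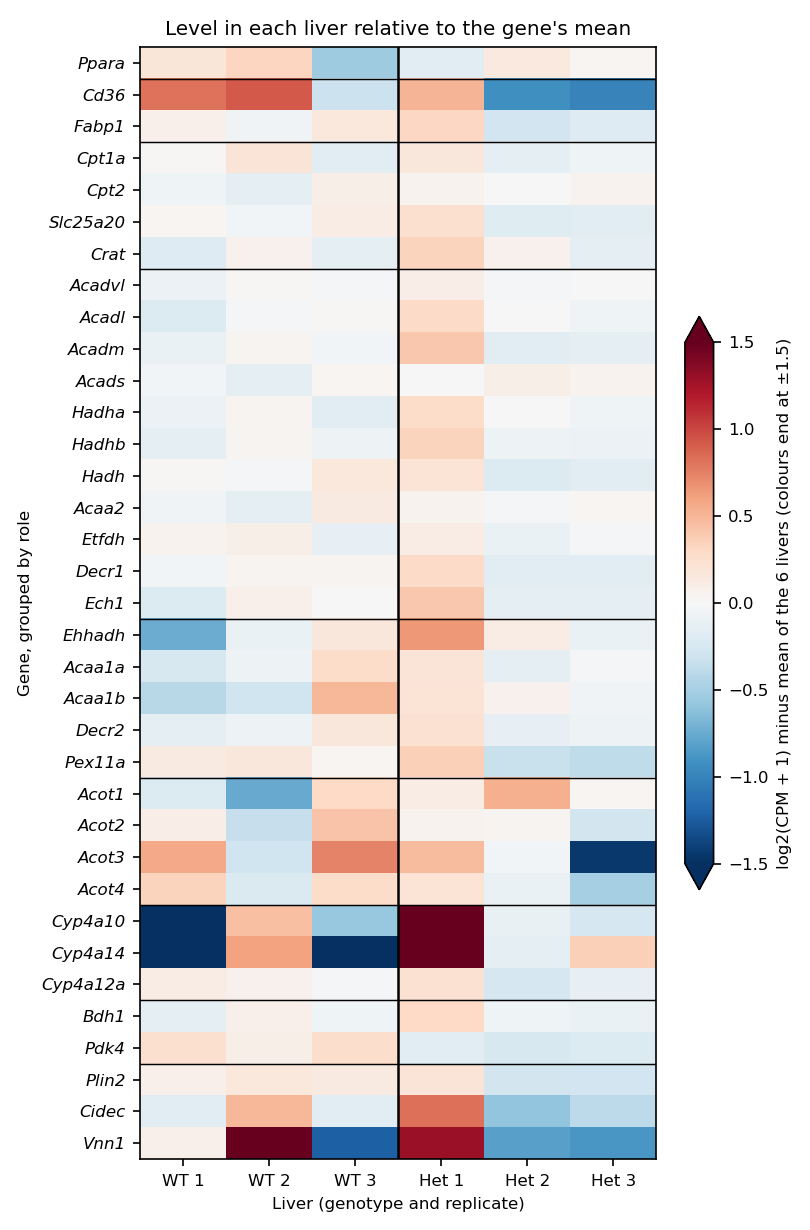
Level of each of the 35 genes (vertical axis, grouped by role, with lines between roles) in each liver (horizontal axis), as log2(CPM + 1) minus the mean of the 6 livers, with red above and blue below the mean. Het replicate 1 has the highest value in 21 rows, and Cyp4a10, Cyp4a14 and Vnn1 vary most within a genotype.

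Cyp4a10 and Cyp4a14, which encode fatty acid omega-hydroxylases, varied most. Cyp4a10 (ENSMUSG00000066072) had 16.99, 126 and 61.8 CPM in the WT livers and 672, 84.9 and 76.97 CPM in the Het livers. Cyp4a14 (ENSMUSG00000028715) had 3.66, 64.3 and 14.2 CPM in the WT livers and 629, 38.3 and 54.1 CPM in the Het livers. Het replicate 1 was the highest and WT replicate 1 the lowest liver for both genes, WT replicate 2 came second for both, and the genotypes overlapped. Relative to the median of the other 5 livers, Het replicate 1 held 8.63 times the Cyp4a10 and 16.04 times the Cyp4a14 level, and 4 and 3 of the 12631 tested genes had a larger ratio. The spread within WT livers was wide as well. Between the highest and the lowest WT liver the ratio (with 1 CPM added) was 7.06 for Cyp4a10 and 14.02 for Cyp4a14. With all 6 livers the log2 fold change of Cyp4a10 was 2.02 (SE 1.32, 95% interval -1.56 to 5.61), and that of Cyp4a14 was 3.13 (SE 1.77, 95% interval -1.68 to 7.94). With Het replicate 1 left out these values were 0.24 and 0.75, and without WT replicate 2 they were 2.82 and 4.76.

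The other omega-hydroxylase among the members, Cyp4a12a, is known as a male-biased gene of mouse liver. Its levels varied less than those of Cyp4a10 and Cyp4a14. They were 527, 509 and 484 CPM in the WT livers and 573, 409.6 and 448 CPM in the Het livers (log2 fold change -0.088, SE 0.14, 95% interval -0.39 to 0.22). Het replicate 1 was again the highest liver, at 1.18 times the median of the others. Cyp4a10 and Cyp4a14 ordered the livers alike apart from Het replicates 2 and 3, but their counts did not scale in proportion. The ratio of Cyp4a10 to Cyp4a14 counts was 4.64, 1.96 and 4.36 for WT libraries and 1.07, 2.21 and 1.42 for Het libraries. It was lowest where both genes were highest. Close copies limit the gene names here. Of the distinct 50-base words in the Cyp4a10 transcripts of GENCODE M21, 29.8% also occur in transcripts of another gene, mostly Cyp4a32, against 0.245% for Cyp4a14 and 48.9% for Cyp4a12a, mostly Cyp4a12b. Summed with Cyp4a31 and Cyp4a32, the Cyp4a10 group had 56.0, 170.5 and 101 CPM in the WT and 723, 160.3 and 119.7 CPM in the Het livers, so Het replicate 1 was the highest with the copies included.

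**Figure D2:**
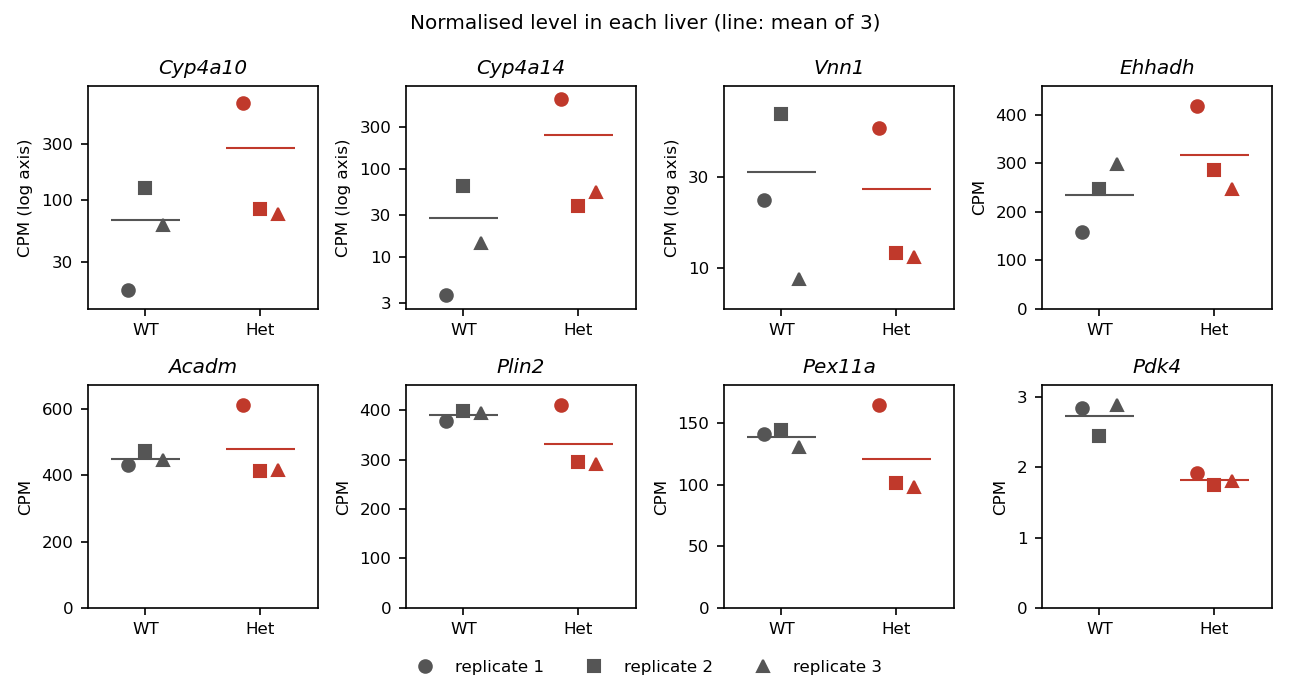
Normalised level in CPM (vertical axis, log scale for Cyp4a10, Cyp4a14 and Vnn1 and from 0 for the others) of 8 genes in the WT and Het livers (horizontal axis). Each point is 1 liver, its shape gives the replicate number and the line is the mean of 3 livers. Het replicate 1 is the highest Het point in every panel, and for Pdk4 the 3 Het points lie below the 3 WT points.

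Ppara, the receptor gene (ENSMUSG00000022383), did not share the liver order of Cyp4a10 and Cyp4a14. Like Cpt1a and Vnn1, it was highest in WT replicate 2 and lowest in WT replicate 3. It had 156, 173 and 95.02 CPM in the WT livers and 124, 152 and 140.3 CPM in the Het livers, with WT replicate 3 the lowest and Het replicate 1 the second lowest liver. The group values were 141 ± 40.95 CPM for WT and 139 ± 14.2 CPM for Het (SD, n = 3), with a log2 fold change of -0.028 (SE 0.21, 95% interval -0.53 to 0.47). At 0.815 times the median of the other livers, Het replicate 1 thus combined the highest Cyp4a10 and Cyp4a14 levels with a receptor transcript in the lower part of the range. Leaving out WT replicate 3 gave a log2 fold change of -0.25 and leaving out WT replicate 2 gave 0.14, and the value was also above 0 without WT replicate 1 or Het replicate 1.

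Fatty acid uptake and binding is represented by Cd36, a membrane receptor for long-chain fatty acids, and Fabp1, the abundant cytosolic fatty acid carrier of hepatocytes. Cd36 had 33.1, 35.5 and 14.5 CPM in the WT livers and 26.6, 9.24 and 8.68 CPM in the Het livers (log2 fold change -0.90, SE 0.63, 95% interval -2.56 to 0.76). Het replicates 2 and 3 were the lowest livers, and Het replicate 1 lay among the WT values. Fabp1 had 5366, 4899 and 5655 CPM in the WT livers and 6286, 4151 and 4434 CPM in the Het livers (log2 fold change -0.10, SE 0.17, 95% interval -0.47 to 0.28), with Het replicate 1 the highest and the other 2 Het livers the lowest of the 6. On a scale per exonic length, Fabp1 had the highest level of all members, 9280.1 CPM per kb, followed by Acaa2 with 606, Acaa1b with 336, Cyp4a12a with 203 and Acadvl with 172 CPM per kb. The lowest levels on this scale were those of Pdk4 (0.647), Acot2 (1.09) and Cidec (1.16 CPM per kb).

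The promoter of Fabp1 is shown because it was the one member window that held a direct repeat of the kind PPARA and RXR bind. RefSeq windows from 250 bases before to 50 after the start were found for 28 of 35 members (Acaa2, Crat, Cyp4a10, Cyp4a12a, Cyp4a14, Decr1 and Vnn1 had none). The motif AGGNCANAGGNCA, searched on both strands, occurred in 0.381% of the 32851 windows of all genes and in 1 of 31 member windows. The 250 bases before the start of Fabp1, chr6:71199629-71199878 on the plus strand of GRCm38.p6 (a later build than the mm9 of the counts), are printed 5′ to 3′ with the match, which lies on the minus strand from base 184, in capitals.
Fabp1: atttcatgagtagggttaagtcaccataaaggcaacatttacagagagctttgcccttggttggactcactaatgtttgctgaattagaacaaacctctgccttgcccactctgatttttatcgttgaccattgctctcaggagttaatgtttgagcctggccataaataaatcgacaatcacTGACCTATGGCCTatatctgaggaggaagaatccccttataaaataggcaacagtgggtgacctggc
The match describes these letters, and no binding was measured.

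The carnitine shuttle carries long-chain acyl groups into mitochondria. Cpt1a, its rate-limiting enzyme at the outer membrane, had 363, 411 and 321 CPM in the WT livers and 407, 326 and 344 CPM in the Het livers (log2 fold change -0.025, SE 0.13, 95% interval -0.31 to 0.26). WT replicate 2 and Het replicate 1 were the highest livers. Cpt2, the inner membrane enzyme, had 145, 138 and 161 CPM in the WT livers and 158, 151 and 156 CPM in the Het livers, a narrow range in both genotypes. Slc25a20, the carnitine-acylcarnitine carrier, had 112, 106 and 119 CPM in the WT livers and 130.1, 96.4 and 97.6 CPM in the Het livers, with Het replicate 1 highest and the other 2 Het livers lowest. Crat, the carnitine acetyltransferase, had 51.5, 61.7 and 53.4 CPM in the WT livers and 74.3, 61.7 and 53.7 CPM in the Het livers, and Het replicate 1 was again the highest. Log2 fold changes in this role ran from -0.056 for Slc25a20 to 0.19 for Crat.

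Mitochondrial beta-oxidation, with 11 members, showed a modest elevation of the same liver. Het replicate 1 was the highest liver for 9 of the 11, all but Acads and Acaa2, and the median ratio to the other livers was 1.25. Between genotypes 8 members were higher and 3 lower in Het livers, with log2 fold changes from -0.10 (Hadh) to 0.15 (Acadl) and a median of 0.092. Acadm, the medium-chain acyl-CoA dehydrogenase, had 431, 472 and 447 CPM in the WT livers and 611, 412 and 417 CPM in the Het livers (log2 fold change 0.092, SE 0.16, 95% interval -0.26 to 0.44). The other 5 livers lay between 412 and 472 CPM, and Het replicate 1 was at 1.42 times their median.

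Ech1, a dienoyl-CoA isomerase that handles unsaturated chains, had 271, 330.2 and 312 CPM in the WT livers and 414, 283 and 284 CPM in the Het livers. Decr1, the mitochondrial dienoyl-CoA reductase of the same branch, had 265, 279.8 and 279.9 CPM in the WT livers and 330.0, 241 and 242 CPM in the Het livers. In both genes Het replicate 1 was above every other liver and Het replicates 2 and 3 lay close together. The very-long-chain and long-chain dehydrogenase genes were highest in the same liver. Acadvl had 434, 466 and 457 CPM in the WT livers and 495, 456 and 462 CPM in the Het livers, and Acadl 222, 249.7 and 258 CPM in the WT livers and 313, 254 and 245 CPM in the Het livers. Acads, the short-chain dehydrogenase, had 163, 152 and 171 CPM in the WT livers and 169, 179 and 174 CPM in the Het livers, and here Het replicate 1 lay in the middle of the order. Acaa2, the mitochondrial thiolase and the most abundant member of this role in CPM, had 885, 829 and 1005 CPM in the WT livers and 955, 905 and 933 CPM in the Het livers and was highest in WT replicate 3. Hadh, the short-chain hydroxyacyl-CoA dehydrogenase, had 329, 323 and 365 CPM in the WT livers and 375, 283 and 293 CPM in the Het livers. Etfdh, which passes electrons from the dehydrogenases to ubiquinone, had 432, 445 and 384 CPM in the WT livers and 449.9, 389 and 411 CPM in the Het livers. None of these genes separated the genotypes.

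Hadha and Hadhb encode the alpha and beta subunits of the mitochondrial trifunctional protein. Hadha had 373, 408 and 356 CPM in the WT livers and 481, 395 and 379 CPM in the Het livers (log2 fold change 0.14, SE 0.12, 95% interval -0.13 to 0.42). Hadhb had 249, 283 and 259.8 CPM in the WT livers and 345, 259 and 257 CPM in the Het livers (log2 fold change 0.12, SE 0.13, 95% interval -0.17 to 0.41). The ratio of Hadha to Hadhb counts stayed between 1.37 and 1.52 in the 6 libraries, and Het replicate 1 was the highest liver for both. Ratios to other genes of this role were not taken, so this range is not shown to be particular to the pair. The 2 genes lie head to head, and their RefSeq promoter windows share 228 bases. Of the 50-base words in Hadhb transcripts 57.5% also occur in another gene's transcripts, nearly all in Gm13910, so its counts are uncertain where reads could be assigned to either. For Acadm this share was 3.73%. The promoter sequence of Hadhb is printed because its window overlaps that of Hadha. That of Acadm is printed because its ratio in Het replicate 1 was second only to that of Ech1 in this role. Each line holds the 250 bases before the start, 5′ to 3′ in GRCm38.p6: chr5:30155003-30155252 on the plus strand with the bases that also lie in the Hadha window in capitals, and chr3:153944644-153944893 on the minus strand with a single motif AGGTCA (searched on both strands, here on the reverse strand from base 2) in capitals.
Hadhb: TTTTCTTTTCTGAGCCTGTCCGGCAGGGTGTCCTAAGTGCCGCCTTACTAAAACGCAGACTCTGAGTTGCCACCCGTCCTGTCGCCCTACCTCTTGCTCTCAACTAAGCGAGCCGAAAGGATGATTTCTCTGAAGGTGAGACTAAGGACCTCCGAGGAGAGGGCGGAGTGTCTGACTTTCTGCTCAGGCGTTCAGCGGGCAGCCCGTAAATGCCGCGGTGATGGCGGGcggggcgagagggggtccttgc
Acadm: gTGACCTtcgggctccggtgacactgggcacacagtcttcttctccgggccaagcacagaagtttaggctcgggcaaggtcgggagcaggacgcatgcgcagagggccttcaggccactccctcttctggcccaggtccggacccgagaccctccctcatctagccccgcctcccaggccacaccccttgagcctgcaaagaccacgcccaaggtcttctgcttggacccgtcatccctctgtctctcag
The single motif occurred in 9 of 31 member windows and in 16.3% of all windows. The 9 windows belong to 8 members (Acadm, Acadvl, Acot3, Acot4, Cd36, Cpt1a, Fabp1 and Plin2), and in Fabp1 a match overlaps the direct repeat.

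Of the 5 peroxisomal members, Ehhadh and Acaa1b varied most among the WT livers. Ehhadh, the bifunctional enzyme of the second and the third step of peroxisomal beta-oxidation, had 157, 247 and 299 CPM in the WT livers and 418, 286 and 247 CPM in the Het livers (log2 fold change 0.44, SE 0.28, 95% interval -0.23 to 1.11). WT replicate 1 was the lowest and Het replicate 1 the highest liver, and the other 4 lay between 247 and 299 CPM. Leaving out Het replicate 1 took the log2 fold change of Ehhadh to 0.19, and leaving out WT replicate 1 to 0.21. Acaa1b, a peroxisomal thiolase, had 483, 524 and 908 CPM in the WT livers and 741, 675 and 619 CPM in the Het livers, and its copy Acaa1a 125, 139.6 and 178 CPM in the WT livers and 169, 134 and 146 CPM in the Het livers. Both were highest in WT replicate 3, then in Het replicate 1, and lowest in WT replicate 1. The copies share 26.7% of the words of Acaa1a and 35.5% of those of Acaa1b, and summed they gave a log2 fold change of 0.076 (SE 0.21). Decr2, the peroxisomal dienoyl-CoA reductase, had 199.9, 208 and 247 CPM in the WT livers and 258, 201 and 208 CPM in the Het livers. Pex11a, which promotes division of peroxisomes, had 141, 144 and 131 CPM in the WT livers and 164, 101 and 98.2 CPM in the Het livers (log2 fold change -0.19, SE 0.19, 95% interval -0.64 to 0.25), with Het replicate 1 above and the other 2 Het livers below every WT liver.

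Acyl-CoA thioesterases, which release free fatty acids from coenzyme A, followed another order. The 4 genes Acot1 to Acot4 are neighbours in the genome. Het replicate 1 was the highest liver for 0 of the 4. Acot1, the cytosolic form, had 16.4, 10.9 and 23.7 CPM in the WT livers and 20.7, 28.1 and 19.6 CPM in the Het livers (log2 fold change 0.43, SE 0.30, 95% interval -0.30 to 1.16). Acot3, a peroxisomal form, had 42.2, 22.7 and 47.8 CPM in the WT livers and 39.7, 27.4 and 9.71 CPM in the Het livers (log2 fold change -0.55, SE 0.60, 95% interval -2.15 to 1.05), and Het replicate 3 was the lowest liver. Acot4, the other peroxisomal form, had 57.2, 38.97 and 55.1 CPM in the WT livers and 52.5, 42.3 and 31.9 CPM in the Het livers, and the mitochondrial form Acot2 2.60, 1.63 and 3.49 CPM in the WT livers and 2.49, 2.44 and 1.76 CPM in the Het livers. WT replicate 2 had the lowest value for Acot1 and Acot2 and the second lowest for Acot3 and Acot4, although it stood second for Cyp4a10 and Cyp4a14. Acot1 shares 32.7% of its words with other genes and Acot2 27.7%, mostly with each other. Summed over Acot1 to Acot6, the log2 fold change was -0.21 (SE 0.29), a sum in which Acot3 and Acot4 held most of the counts. For Acot3 the log2 fold change was -1.01 without Het replicate 1 and -0.16 without Het replicate 3.

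Pdk4, a kinase that shuts off pyruvate dehydrogenase and so favours fatty acids as fuel, was the one member with separate genotypes. Its counts per library corresponded to 2.84, 2.45 and 2.88 CPM in the WT livers and 1.91, 1.75 and 1.80 CPM in the Het livers. The highest Het value was below the lowest WT value. The means were 2.72 ± 0.237 CPM for WT and 1.82 ± 0.0834 CPM for Het (SD, n = 3), the difference on the log2 scale was -0.58 (SE 0.18, 95% interval -0.98 to -0.17) and the unadjusted edgeR p was 0.00989, with an adjusted p of 0.9998 over all genes. Leaving out each liver in turn gave -0.65 to -0.54. At this level each library held 37 to 59 counts of the gene. Bdh1, which interconverts the 2 main ketone bodies, had 359, 420.2 and 379 CPM in the WT livers and 488, 379 and 371 CPM in the Het livers (log2 fold change 0.10, SE 0.13, 95% interval -0.20 to 0.39), with Het replicate 1 the highest.

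The remaining members are 2 lipid droplet proteins and a pantetheinase. Plin2, the main droplet coat protein of hepatocytes, had 378, 398 and 393 CPM in the WT livers and 409, 296 and 292 CPM in the Het livers (log2 fold change -0.23, SE 0.14, 95% interval -0.54 to 0.083). Het replicates 2 and 3 lay below all WT livers and Het replicate 1 above them. Cidec, which fuses lipid droplets, was scarce, with 1.64, 3.18 and 1.64 CPM in the WT livers and 4.25, 0.966 and 1.27 CPM in the Het livers, and Het replicate 1 was again the highest. Vnn1, which cleaves pantetheine and is a known PPARA target, had 22.7, 64.6 and 8.69 CPM in the WT livers and 54.4, 11.9 and 11.4 CPM in the Het livers (log2 fold change -0.31, SE 1.07, 95% interval -3.22 to 2.59). WT replicate 2 and Het replicate 1 were the 2 highest livers, and 14 of all tested genes had a wider range within a genotype. The sign of the Vnn1 log2 fold change depended on single livers: it was -1.47 without Het replicate 1, 0.72 without WT replicate 2, and above 0 without Het replicate 2 or 3.

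**Figure D3:**
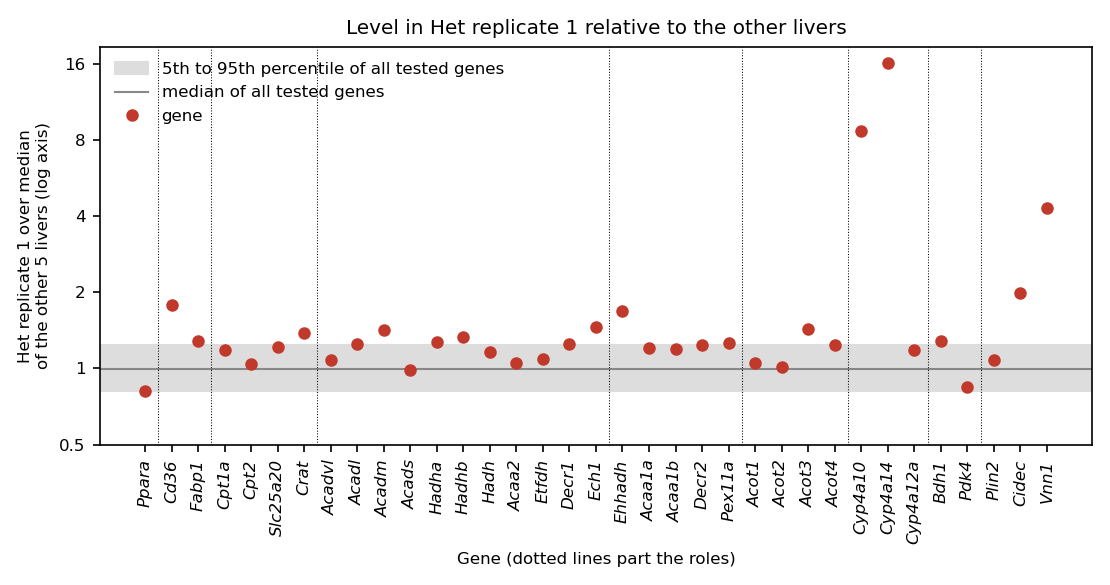
Ratio of the level in Het replicate 1 to the median of the other 5 livers, with 1 CPM added to both (vertical axis, log scale), for each of the 35 genes (horizontal axis, dotted lines between roles). The grey band spans the 5th to 95th percentile of all tested genes (0.812 to 1.23) and the line is their median. Cyp4a14 (16.04), Cyp4a10 (8.63) and Vnn1 (4.31) lie highest and Ppara (0.815) lowest.

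Because 1 liver shaped so many values, the comparison was read again without Het replicate 1. It was left out because it was highest for so many members, so lower Het values follow from that choice and are given as a description. Of the 35 members 22 then had lower values in Het livers, and the median log2 fold change was -0.092 against 0.0031 for all genes. An unadjusted p under 0.05 was reached by 7 members, all lower in Het livers, against 7.33% of all genes in the same fit: Cd36 (-1.63), Fabp1 (-0.31), Slc25a20 (-0.21), Pex11a (-0.47), Pdk4 (-0.61), Plin2 (-0.41) and Cidec (-0.95). Genotypes were separate for 12 members, 11 of them lower and Acads higher, against 23.9% of all genes with 2 Het livers. After adjustment 0 members passed (edgeR, Benjamini-Hochberg), with a smallest adjusted p of 0.165 for Pex11a, while 10 of 12779 tested genes passed (0.0783%). These values rest on 2 Het livers that resembled each other.

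**Figure D4:**
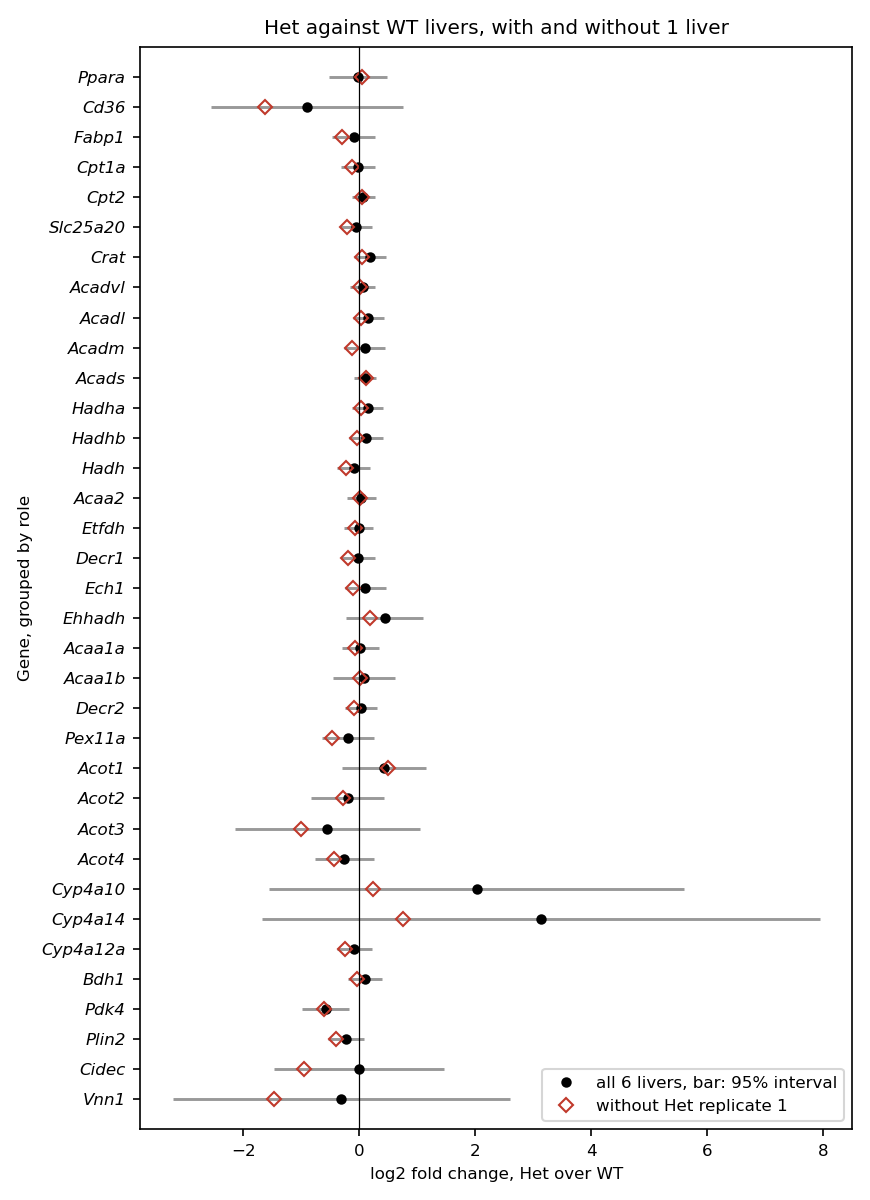
Log2 fold change of Het over WT (horizontal axis) for each of the 35 genes (vertical axis, grouped by role), with all 6 livers (black points, bars give the 95% interval) and without Het replicate 1 (red diamonds). The interval of Pdk4 does not reach 0, while Cyp4a10, Cyp4a14, Cd36, Cidec and Vnn1 shift most when that liver is left out.

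Other genes of the pathway, 84 in a list of which 74 were tested, also held no call. Het replicate 1 was less often their highest liver than for the members (40.5% against 60%). Separate genotypes were more frequent among them (12.2% against 2.86%). After adjustment of the edgeR p-values 0 of 74 passed, 45 were higher and 29 lower in Het livers, and 5 had an unadjusted p under 0.05. With log2 fold changes in parentheses, higher values were found for Slc16a1, a monocarboxylate and ketone body transporter (0.40, adjusted p 0.529), for Fabp2, the intestinal-type fatty acid carrier (0.33), and for Cyp4a31 (1.37), whose counts were 4 to 39 per library. A lower value was found for Acacb, the acetyl-CoA carboxylase that limits carnitine-dependent import (-0.57). Het replicate 1 was the highest liver for 30 of the 74 genes, with a median ratio to the other livers of 1.08, and the median log2 fold change was 0.028. Genotypes were separate for 9 of the 74. Over all tested genes the shares were 4.33% with an unadjusted p under 0.05, 14.8% highest in Het replicate 1 and 8.99% with separate genotypes.

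Some textbook genes of the pathway were highest in Het replicate 1 and others were not. Fgf21, a fasting hormone under PPARA control, had 6.59, 18.1 and 5.04 CPM in the WT livers and 26.00, 5.29 and 3.22 CPM in the Het livers, highest in Het replicate 1 and next in WT replicate 2, as for Cyp4a10 and Cyp4a14. Angptl4, an inhibitor of lipoprotein lipase, had 118, 95.6 and 95.1 CPM in the WT livers and 100.5, 81.8 and 84.8 CPM in the Het livers, and Rxra, which encodes the receptor partner, 404, 447 and 303 CPM in the WT livers and 392.5, 381 and 404 CPM in the Het livers. For Angptl4 and Rxra a WT liver was the highest.

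Expression scores for inflammatory and feeding states differed between the same livers and are given beside these values. The mean score of 12 acute-phase genes was 0.93, 2.03 and -1.25 for WT livers and 0.61, -0.97 and -1.35 for Het livers, so WT replicates 1 and 2 and Het replicate 1 were the 3 highest. Among the members, Vnn1, Cd36, Cpt1a, Etfdh, Pex11a and Cyp4a12a had their 3 highest values in the same 3 livers. Fgf21 and some other genes of the pathway list did too. The share of all tested genes with these 3 livers highest was not taken. Cyp4a10 and Cyp4a14 were lowest in WT replicate 1. A score of 10 genes of fasting and feeding was 0.24, 0.025 and 0.32 for WT livers and -0.057, -0.51 and -0.017 for Het livers. One of 10 clock genes was 0.090, 0.012 and 0.000030 for WT livers and 0.0097, -0.13 and 0.018 for Het livers. Both scores average genes whatever their direction, so opposite changes cancel and similar scores do not show matched states. Among the clock genes, Het replicate 2 had the highest Arntl and the lowest Per1, Per2 and Ciart levels. Its Clock, Nr1d1, Nr1d2, Per3, Dbp and Tef levels lay within the range of the other livers. Per1 was lower in every Het than in every WT liver, and Arntl had 16 to 59 counts per library. WT replicate 3 had the lowest Arntl level. Markers of Kupffer cells, the macrophages of the liver (6 of 6 tested), summed to 162, 159 and 87.6 CPM in the WT and 131, 177 and 101 CPM in the Het livers. Het replicate 2 had the highest sum, with Cd36 at 9.24 CPM, below every WT liver. Among 6 adipocyte markers Adipoq, Plin1, Retn, Lep and Cfd had 0 to 3 counts per library, at or near 0, and Adrb3 had 25, 48 and 51 counts in the WT and 78, 93 and 92 counts in the Het libraries. The part of the acute-phase, feeding and macrophage signals in the member values was not tested.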

How the data were processed

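Poly(A) RNA libraries (Illumina TruSeq) were made from Trizol extracts of frozen livers, per the labels' protocols. The submitters' processing notes name TopHat2 2.0.11, HTSeq 0.6.1 and DESeq with build mm9, without their roles. Neither the annotation release nor the counting strand is given in the sources used here. Each deposited file lists whole-number counts by Ensembl gene, not normalised; 32919 of 37991 IDs matched a symbol. Genotypes were compared with edgeR 4.0.16 in R 4.3.3 (filterByExpr, TMM, robust quasi-likelihood fit on genotype, Benjamini-Hochberg over 12631 genes, threshold 0.05). SE and 95% intervals came from the F statistic. Exonic lengths and 50-base words came from GENCODE M21 (GRCm38), which is another build than the counts, so no gene coordinates are given. Promoters came from RefSeq (GRCm38.p6). The fit was tested on simulated data. The members and lists were chosen with earlier results of these data known. Named were members with an unadjusted p under 0.05, separate genotypes, the 5 largest changes or ranges, Ppara, and the most abundant per role. The other members are given per liver as well, with textbook genes and other pathway genes with p under 0.05, of which a few are not reported here. Acads, Gm13910 and the genes in the closing observations were named after their values were seen. Alternatives were DESeq2 1.42.0 (test and size factors), limma-voom (limma 3.58.1), other filters, library sizes, dispersion settings, the replicate number as a block, summed close copies and each library left out.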

Additional observations from a re-analysis of the deposited data

How the results depend on the processing

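Under every alternative run 0 members and 0 other pathway genes passed the threshold (edgeR, DESeq2 or limma-voom, Benjamini-Hochberg), where DESeq2 gave no p-value for Cyp4a14. Over all genes the count of calls was 1 without a low-count filter, 13 with DESeq2 and 0 to 17 with each library left out (17 without WT replicate 3, 10 without Het replicate 1). The count of members with an unadjusted p under 0.05 was 2 (Cyp4a14 and Pdk4) without robust estimation and with limma-voom, and 1 to 7 with each library left out (all genes 4.54%, 4.52% and 2.22% to 10.8%). Members with separate genotypes numbered 2 (Pdk4 and Acadvl) with library sizes that omit the 20 most abundant genes, a setting that moved the median of all genes from 0.00088 to 0.026, and 1 to 12 with each library left out, where 14.2% to 29.0% of all genes were separate against 8.99% with all 6. Same-numbered livers showed no regular pairing (correlations of deviations from the genotype mean -0.025, -0.078 and 0.22). Replicates 3 correlated best with each other, and the other numbers did not. Deviations of 3 livers from their own mean depend on each other, so this check cannot exclude pairing. With the replicate block 0 members passed and 1 had an unadjusted p under 0.05 (Pdk4), as without it. Signs of several log2 fold changes turned. Ppara was 0.00039 with library sizes omitting the 20 genes, 0.017 with limma-voom and 0.010 with the replicate block. Etfdh was 0.013, Decr1 0.0025 and Cidec 0.014 with those library sizes, Cidec was 0.0037 with DESeq2, and the sum of Acot1 to Acot6, used as the pooled value for Acot1 (0.43 alone), was -0.21, with most of its counts from Acot3 and Acot4. With each library left out, 18 members changed sign, with ranges of -0.25 to 0.14 for Ppara, -0.31 to 0.015 for Fabp1, -0.12 to 0.068 for Cpt1a, -0.21 to 0.020 for Slc25a20, -0.12 to 0.19 for Acadm, -0.033 to 0.20 for Hadhb, -0.022 to 0.12 for Acaa2, -0.073 to 0.035 for Etfdh, -0.19 to 0.059 for Decr1, -0.10 to 0.20 for Ech1, -0.090 to 0.18 for Acaa1a, -0.082 to 0.43 for Acaa1b, -0.092 to 0.12 for Decr2, -0.45 to 0.080 for Acot2, -0.24 to 0.011 for Cyp4a12a, -0.043 to 0.17 for Bdh1, -0.95 to 0.40 for Cidec and -1.47 to 0.72 for Vnn1. The causes were not tested. With 3 livers per genotype the exact permutation test cannot go below 0.1. Depth limits Pdk4, Acot2 and Cidec most, whose levels were under 5 CPM.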

Other observations

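The following genes of the other pathway list were chosen after their values were seen, the first 4 because Het replicate 1 was highest. G0s2, an inhibitor of triglyceride lipolysis, had 41.7, 43.5 and 55.8 CPM in the WT livers and 78.2, 33.3 and 36.6 CPM in the Het livers. Eci1, a mitochondrial enoyl-CoA isomerase, had 84.2, 96.2 and 96.2 CPM in the WT livers and 129, 83.9 and 85.2 CPM in the Het livers, and the fatty acid carrier gene Fabp4 3.27, 4.22 and 3.75 CPM in the WT livers and 7.70, 2.81 and 3.07 CPM in the Het livers. Acsl1, which activates long-chain fatty acids, had 1259.6, 1113 and 1369.5 CPM in the WT livers and 1589, 1277 and 1183 CPM in the Het livers. In each of these 4 genes the genotypes overlapped. Lpin1, a phosphatidate phosphatase and coactivator of PPARA, was instead highest in WT replicate 1, with 140.3, 106 and 53.6 CPM in the WT livers and 78.9, 45.8 and 61.7 CPM in the Het livers. Pparg, the receptor of the same family that acts in lipid storage, had 6.93, 8.17 and 6.01 CPM in the WT livers and 6.64, 3.08 and 4.59 CPM in the Het livers. Levels of Cyp4a32, the copy nearest to Cyp4a10, set Het replicate 2 apart, with 38.8, 43.97 and 38.7 CPM in the WT livers and 49.2, 74.9 and 42.1 CPM in the Het livers.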
